A study of Mus musculus with 8 samples.

Results

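The genes described here encode the proteins of the cytoplasmic ribosome. They were the rows of the count table whose Ensembl identifier maps to a protein-coding mouse symbol of the form Rpl or Rps followed by a number (with an a or x where the symbol has one), with Rplp0, Rplp1, Rplp2 and Rpsa, and with Rpl3 and all pseudogenes left out. This gave 75 of the 51826 genes in the table, 45 of the large (60S) and 30 of the small (40S) subunit, and all 75 passed the filter on low counts that left 16623 genes to test. The study sequenced total RNA of cardiomyocytes from the heart of C57BL/6 mice, wild type (WT) or homozygous for a null allele of the long noncoding RNA LncSync (LncSync-/-, called KO), as embryos (e13.5, embryonic days) and as adults. The 4 groups were WT e13.5, KO e13.5, WT adult and KO adult, with 2 libraries each. For each library 200 ng of RNA went into Smart-seq2 amplification. Whether a group's libraries stem from different animals is not stated, and p-values therefore cover only the spread between these samples, which may be technical. Age in months, sex, treatment and how the null allele was made were not given in the sources used here.

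A ribosome joins a small subunit, which binds the mRNA and reads its codons, to a large subunit, which forms the peptide bonds. Each subunit holds 1 copy of nearly every one of its proteins, so cells keep the transcripts of these genes in step. Many of the mRNAs begin with a run of pyrimidines (the 5' TOP motif), through which the growth-signalling kinase complex mTORC1 and the binding protein Larp1 regulate their translation. Cardiomyocytes divide in the embryo and have mostly stopped dividing in the adult heart. Ribosomal protein mRNAs have also given rise to many processed pseudogenes, copies of the spliced mRNA pasted back into the genome, whose reads are hard to tell from those of the parent gene.

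Libraries held between 16495084 and 20395600 counts, and 3 counts in a library correspond to 0.103 to 0.207 CPM (counts scaled to a common library size, with TMM factors of 0.77 to 1.44). All 12 cardiomyocyte markers examined were detected, summing to 14670 to 37780 CPM at e13.5 and 83590 to 107900 CPM in adults. Haemoglobin genes took 15.5% of the counts of KO e13.5 replicate 1, 2.89% to 4.65% in the other e13.5 libraries and at most 0.0136% in adults. Mitochondrial genes took 3.21% to 4.36% at e13.5 and 22.6% to 28.8% in adults. Libraries also differed by transcript length. Other protein-coding genes were summarised only if they had at least 5 CPM in every library, a floor not applied to the members. Among the 272 under 1 kb by longest transcript, the median log2 CPM was taken relative to the mean of the 4 same-age libraries. It was 0.55 in WT and 0.46 in KO replicate 1 at e13.5 against -0.48 and -0.52 in replicate 2. In adults it was 0.47 in KO replicate 1, 0.02 in WT replicate 1 and -0.25 in replicate 2 of each genotype. Among 392 genes over 8 kb it was -0.46 in WT e13.5 replicate 1 and -0.37 in KO adult replicate 1, so these libraries were high for short transcripts and low for long ones. By their longest transcript 32 members were under 1 kb, 30 from 1 to 2 kb and 11 from 2 to 4 kb, and the part of this length pattern in the results below was not tested.

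The share of all counts that fell in the 75 genes was lower in adults in every library. At e13.5 it was 3.77% in WT replicate 1, 3.20% in WT replicate 2, 2.47% in KO replicate 1 and 3.60% in KO replicate 2. In adults it was 0.983% and 0.734% in WT and 1.33% and 0.759% in KO. The group means were 3.49% ± 0.402 for WT and 3.03% ± 0.793 for KO at e13.5, and 0.858% ± 0.176 and 1.04% ± 0.404 in adults (SD, n = 2). The ages did not overlap, whereas the genotypes overlapped at both ages. The exact 95% binomial interval of the highest share ran from 3.76% to 3.78%, and such intervals cover counting error only. Leaving mitochondrial, haemoglobin and ribosomal RNA genes out of the total gave 3.21% to 4.56% at e13.5 and 1.02% to 1.87% in adults. Large-subunit genes took more counts than small-subunit genes in all 8 libraries, by a ratio of 1.59 to 1.90 at e13.5 and 1.27 to 1.44 in adults. These ratios leave out the near-identical copies described below and are not scaled for 45 large against 30 small genes. In bulk RNA, fewer cells of a type and less RNA per cell cannot be told apart, so these shares are not amounts per cell.

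**Figure D1:**
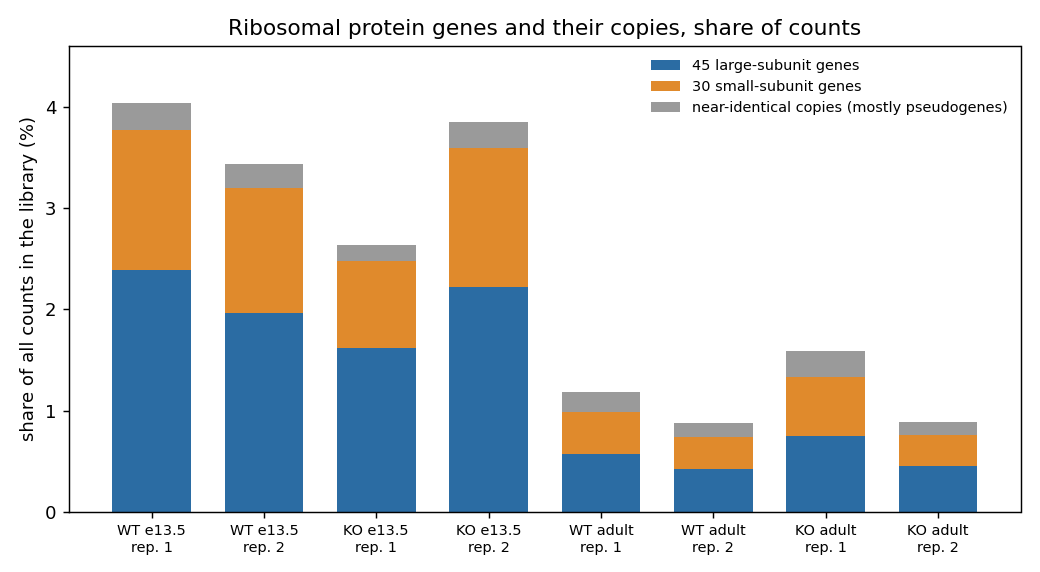
Share of all counts (percent, vertical axis) in each of the 8 libraries, stacked for 45 large-subunit genes, 30 small-subunit genes and their near-identical copies. The e13.5 bars for the genes alone reach 2.47% to 3.77% and the adult bars 0.734% to 1.33%, while the copies make up more of the adult bars.

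Copies with nearly the same sequence held part of the family's reads, and held a larger part in adults. An alignment to the reference annotation assigned 988 genes to 74 of the 75 members as copies, all annotated or named as pseudogenes, with a minimum of 90% identity along 50% of the copy or more. Of the counts of members and copies together, the copies held 6.57% and 6.77% in WT and 6.18% and 6.69% in KO libraries of e13.5. In adults they held 17.1% and 16.5% (WT) and 16.1% and 14.3% (KO), so no adult library came near the e13.5 range. Of all counts in a library, the copies held 0.163% to 0.265% at e13.5 and 0.127% to 0.256% in adults, so this share was not larger in adults. For 18 members the copies held 25% or more of the gene's own family in adults, from 32.7% for Rps6 to 96.4% for Rpl5. Rps16 and Rps28 lay just under this limit, with 23.1% and 22.6%. Since an aligned read can match parent and copy alike, how the estimated counts were divided between them is uncertain. Changes of such members with age are therefore mostly given below both alone and with copies. Their differences between genotypes are given with copies only in part.

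Coding sequences show how little separates a member from its copies. The stretches below are read 5' to 3' along the coding strand of GENCODE vM21 transcripts (mm10), with any base that differs between the pair in capitals. Rpl27, a large-subunit protein gene (chromosome 11, 101442298 to 101445529), and its processed pseudogene Gm11518 (chromosome 11, 94037218 to 94037628) are identical over all 408 coding bases, so bases 1 to 60 stand for both. Rpl14 and Rpl14-ps1 (chromosome 7, 45324965 to 45325617) differ at 4 of 648 aligned bases, of which coding bases 364 to 423 hold 2.
Rpl27 and Gm11518: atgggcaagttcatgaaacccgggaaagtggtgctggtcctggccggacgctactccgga
Rpl14: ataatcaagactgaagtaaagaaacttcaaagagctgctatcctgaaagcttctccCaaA
Rpl14-ps1: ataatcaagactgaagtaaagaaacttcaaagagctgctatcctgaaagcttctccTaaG

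Several copies had counts at 1 age only. Gm12918, whose sequence matches the Rpl13 coding sequence at every one of 633 bases, had 0 counts in all 4 e13.5 libraries, and 4160 and 3716 counts in WT and 5236 and 1483 in KO adults. Rps6-ps4, a copy of Rps6, was likewise at 0 at e13.5, with 1472 and 1350 counts in WT and 1672 and 820 in KO adults. The opposite held for Rps12l1, a copy of Rps12, with 886 and 1335 counts in WT e13.5, 256 and 1294 in KO e13.5 and 0 in all adult libraries. A second Rps12 copy, Rps12-ps3, had 452 and 604 counts in WT e13.5, 141 and 808 in KO e13.5 and from 1481 to 3641 in adults. Gm15500, a copy of Rpl5, had more counts than Rpl5 itself in every library, from 2562 in WT adult replicate 2 to 11213 in WT e13.5 replicate 2. Other copies had counts by genotype: Gm10020, a copy of Rpl15, was at 0 in all WT libraries and had 1325, 2337, 947 and 386 counts in the KO libraries.

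Levels of different genes were compared only per length, as counts per kilobase of exon scaled to the same total in every library. By the mean over all 8 libraries Rplp0, Rplp1 and Rpl36 were the highest of the large subunit, and Rps2 was the highest of the small subunit, where Rps15 was also near the top. The order of the means differed by age. In adults Rplp1 stood above Rplp0, at 770 ± 273 against 685 ± 73.8 in WT and 997 ± 450 against 755 ± 219 in KO (SD, n = 2). At e13.5 Rpl41 stood at 1783 ± 68.0 in WT and 1319 ± 687 in KO, beside 1782 ± 139 and 1260 ± 569 for Rpl36. Each of these gaps was smaller than the larger SD of its pair. Rplp0, which anchors the P stalk that recruits elongation factors, stood at 2988 ± 209 in WT and 2506 ± 659 in KO at e13.5, and at 685 ± 73.8 and 755 ± 219 in adults (per-kilobase level, SD, n = 2). Rps2, a protein at the mRNA entry site, stood at 1362 ± 568 in WT and 958 ± 1130 in KO at e13.5 and 599 ± 94.5 and 711 ± 343 in adults. At the low end of the mean stood Rpl27a, Rpl5 and Rpl12, and Rps24, Rps15a and Rps12, although in adults Rps24, at 52.1 in WT and 54.5 in KO, stood above Rps19, Rps28 and Rps13 at 11.4 to 25.5. Rpl5, which carries the 5S ribosomal RNA, stood at 69.0 ± 2.99 in WT e13.5 and 53.1 ± 17.4 in KO e13.5 and at 3.53 ± 0.443 and 2.89 ± 1.45 in adults. Rplp0, Rps2, Rpl5, Rpl12, Rps15a and Rps12 held their place at the ends of the order with the longest or the principal transcript as the length, Rplp1 with the longest alone, and Rpl36, Rps15, Rpl27a and Rps24 with neither. Rpl27a, Rpl5, Rpl12 and Rps12 are also among the 18 members whose copies held much of the family's counts. In KO at e13.5 Rplp0, Rplp1 and Rpl36 differed from their neighbour among these by less than the larger SD, as did Rpl27a, Rpl5 and Rpl12, and Rps24, Rps15a and Rps12.

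The comparison of adult with e13.5 WT cardiomyocytes asks how the family differs between the embryonic and the mature heart. All 75 fold changes were negative, and 48 members fell (30 of 45 large and 18 of 30 small), with none higher, against 21.1% of all genes lower and 17.8% higher (edgeR quasi-likelihood test with a Benjamini-Hochberg threshold of 0.05 across the genes tested). The median log2 fold change was -1.64 in the large and -1.60 in the small subunit, beside -0.26 over all genes tested. In 72 of 75 members both adult libraries lay below both e13.5 libraries, against 41.8% of all genes. Rpl23a, Rps15 and Rps24 were the members whose ages overlapped. Other protein-coding genes under 1 kb had a median adult minus e13.5 difference of -0.61 on the log2 CPM scale. It was -0.74 for those from 1 to 2 kb, 1.15 for those over 8 kb and -1.57 for the members. The floor of 5 CPM in every library, set for the other genes alone, leaves out genes that are low at either age. These sets are therefore not alike in selection. Erythroid markers, which summed to 19540 and 42180 CPM in WT e13.5 against 17.8 and 89.0 in adults, moved with age as well, and their part was not tested. The count of 48 became 21 without WT e13.5 replicate 1, 18 without WT adult replicate 1 and 9 without WT adult replicate 2, with 12.9%, 7.09% and 6.46% of all genes lower in the same fits, where the remaining library is assumed to vary like the other groups. The medians without WT e13.5 replicate 1 were -1.09 and -1.06.

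In KO the same age comparison gave 26 lower members (17 large and 9 small) and 0 higher, against 20.9% of all genes lower and 20.5% higher (edgeR, same threshold). Of the 75 fold changes 68 were negative, with medians of -1.11 in the large and -0.96 in the small subunit beside -0.15 over all genes. Both adult libraries lay below both e13.5 libraries in 53 members, against 37.9% of all genes. Leaving out KO adult replicate 1 gave medians of -1.70 and -1.65, and leaving out KO adult replicate 2 gave -0.69 and -0.47 with 5 members lower, beside 8.08% of all genes. The count was 17 without KO e13.5 replicate 1 (13.8% of all genes), 16 without WT adult replicate 1 (15.4%) and 16 without WT adult replicate 2 (15.3%).

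**Figure D2:**
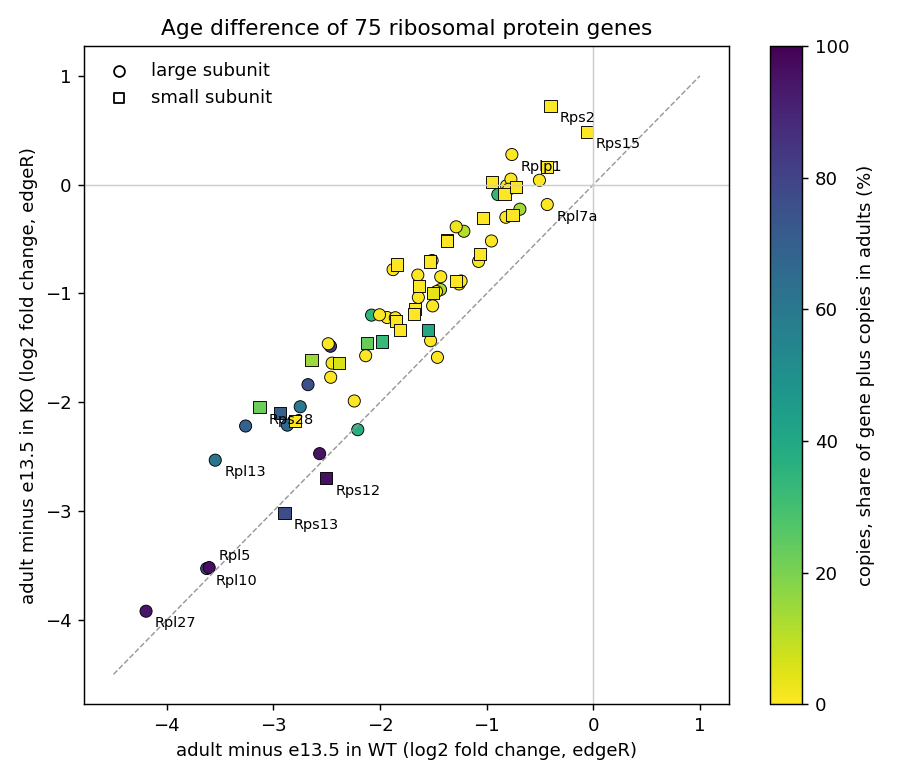
Adult minus e13.5 log2 fold change of each member in WT (horizontal axis) and in KO (vertical axis), with circles for the large and squares for the small subunit, coloured by the share of the gene's family held by its copies in adults (percent); the dashed line marks equal values. Dark points, with large copy shares, lie at the lower left with Rpl27 at -4.20 and -3.92, and Rps2 and Rps15 lie at the upper right.

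The largest falls were in large-subunit genes with abundant copies. Rpl27 (ENSMUSG00000063316) stood at 160 and 106 CPM in WT e13.5 and 143 and 106 CPM in KO e13.5, and at 8.21 and 6.34 CPM in WT and 8.43 and 8.02 CPM in KO adults. The ages were far apart and the genotypes overlapped, and Rpl27 fell 18.3-fold in WT (log2 -4.20 ± 0.47 SE, edgeR adjusted p = 0.000358) and 15.1-fold in KO (log2 -3.92 ± 0.47, adjusted p = 0.000379). With its copies added, the same gene stood at 361, 226, 274 and 233 CPM at e13.5 and at 143, 104, 221 and 119 CPM in adults. The difference with copies was -1.24 ± 0.48 in WT (edgeR adjusted p = 0.0642) and -0.58 ± 0.47 in KO (adjusted p = 0.340), and neither passed the test.

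Rpl10, which sits where the subunits meet and is placed late in 60S maturation, followed (ENSMUSG00000008682, chromosome X, 74270812 to 74273135). It went from 693 and 546 CPM in WT e13.5 and 452 and 543 CPM in KO e13.5 to 60.6 and 39.7 CPM in WT and 43.7 and 42.5 CPM in KO adults. That was a log2 change of -3.63 ± 0.47 in WT and -3.53 ± 0.47 in KO (edgeR adjusted p = 0.000558 and 0.000572). With copies it was -1.79 ± 0.47 in WT, still past the threshold (edgeR adjusted p = 0.0151), and -1.21 ± 0.46 in KO (adjusted p = 0.0597). Rpl13 (ENSMUSG00000000740), the parent of Gm12918, stood at 1449 and 833 CPM in WT e13.5 and 1137 and 943 CPM in KO e13.5 and at 134, 61.1, 179 and 181 CPM in adults. Its fall of 11.7-fold in WT and 5.78-fold in KO shrank to a log2 change of -1.72 ± 0.51 and -1.37 ± 0.51 with copies (edgeR adjusted p = 0.0257 and 0.0543). Alone, its KO change missed the threshold without KO adult replicate 1 or 2 (edgeR adjusted p = 0.0508 and 0.0548). Rpl10a, at 400 and 289 CPM in WT e13.5 and 50.3 and 21.5 CPM in WT adults, changed by -3.26 ± 0.53 alone and by -1.31 ± 0.48 with copies (edgeR adjusted p = 0.00170 and 0.0527).

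Small-subunit genes with large falls differed in how many reads their copies held, from 0.145% of the family in adults for Rps19 to 95.9% for Rps12. Rps28 (ENSMUSG00000067288), a short protein near the mRNA exit site, stood at 168 and 116 CPM in WT e13.5 and 76.9 and 128 CPM in KO e13.5, and at 20.6 and 11.8 CPM in WT and 36.6 and 12.99 CPM in KO adults. It fell 8.76-fold in WT and 4.13-fold in KO (edgeR adjusted p = 0.00399 and 0.0206), and with copies by 2.94 and 1.76 on the log2 scale, both past the threshold. Without WT adult replicate 2 its WT change alone was -2.77 and missed it (edgeR adjusted p = 0.0523). Rps19 (ENSMUSG00000040952), the gene most often mutated in the inherited red cell failure Diamond-Blackfan anaemia, went from 526 and 306 CPM in WT e13.5 and 426 and 333 CPM in KO e13.5 to 67.1, 52.8, 124 and 44.8 CPM in adults. Its log2 change of -2.79 ± 0.58 in WT and -2.17 ± 0.57 in KO (edgeR adjusted p = 0.00536 and 0.0140) was the same to 2 decimals in WT with copies. Rps12 and Rps13 differed from these. Rps12 stood at 34.3, 42.4, 18.3 and 46.9 CPM at e13.5 and 4.68 to 6.75 CPM in adults alone, but with copies at 43.5 to 130 CPM at e13.5 and 109 to 245 CPM in adults. Alone it fell 5.68-fold in WT and 6.49-fold in KO, whereas with copies its log2 change was 0.49 ± 0.59 in WT and 1.07 ± 0.59 in KO (with copies, edgeR adjusted p = 0.534 and 0.166). With only the copies named as pseudogenes of Rps12 added, it was 1.77 in KO and passed the threshold as higher (edgeR adjusted p = 0.0377). Rps13 changed by -2.90 ± 0.43 alone and -1.35 ± 0.50 with copies in WT, and by -3.02 ± 0.44 and -0.75 ± 0.49 in KO, where the values with copies missed the threshold (edgeR adjusted p = 0.0556 and 0.240).

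Over the whole family, adding the copies left 39 of 75 members lower in WT and 11 in KO, with medians of -1.40 and -0.78, beside 21.1% and 20.9% of all genes lower in the same fits. The 18 members with large copy shares accounted for most of this. Their median in WT was -2.71 alone with 17 lower, and -1.33 with copies with 9 lower. In KO it was -2.21 alone with 16 lower, and -0.78 with copies with 2 lower. For the other 57 members the median was -1.46 alone and -1.47 with copies in WT (31 and 30 lower), and -0.85 and -0.83 in KO (10 and 9 lower). The grouping by copy share was made after the values were seen, and the copy share and the fold change use the same counts, so these medians are a description without a test.

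**Figure D3:**
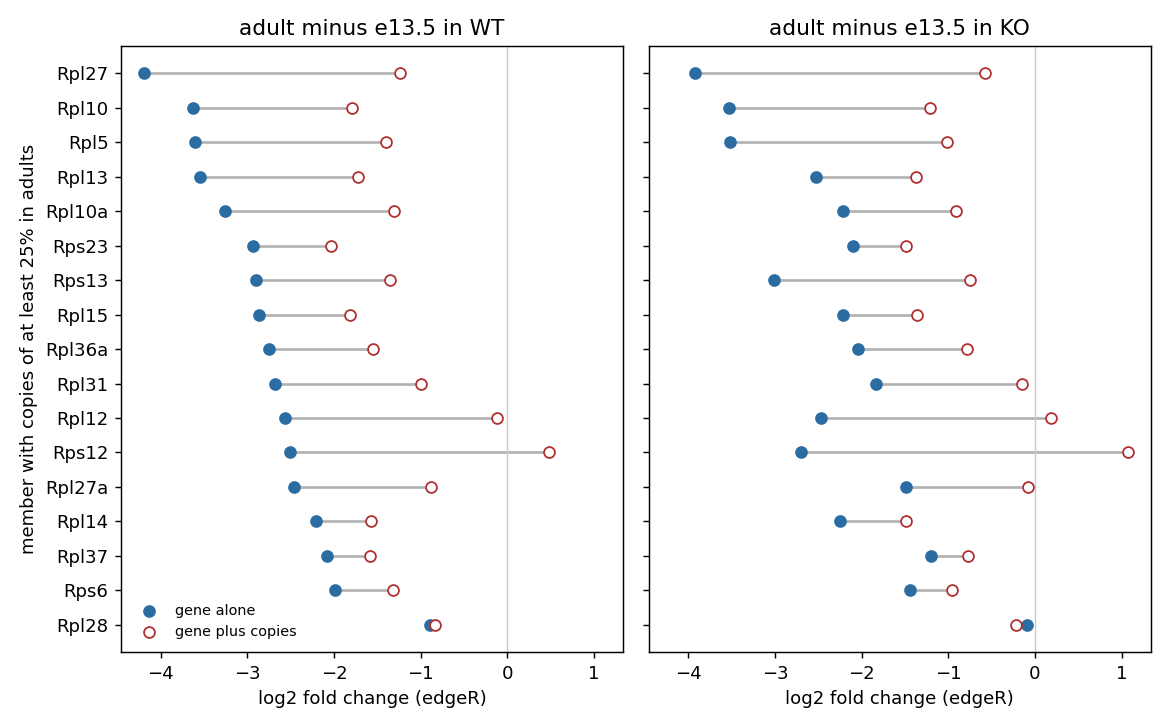
Adult minus e13.5 log2 fold change in WT (left) and KO (right) for 17 of the 18 members whose copies held at least 25% of the family in adults, for the gene alone (filled) and for gene plus copies (open). Open points lie to the right of filled ones except for Rpl28 in KO, and for Rps12 they pass 0, at 0.49 and 1.07.

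By role, the P stalk is the flexible arm of the large subunit that binds elongation factors. It held 1 lower member of 4 in each genotype alone and 0 with copies (edgeR). Of all genes, 21.1% were lower in WT and 20.9% in KO, both alone and with copies. Rplp0 stood at 2341 and 1258 CPM in WT e13.5 and 1996 and 1438 CPM in KO e13.5, and at 680, 618, 1141 and 597 CPM in adults (log2 -1.47 ± 0.54 in WT and -0.98 ± 0.53 in KO; edgeR adjusted p = 0.0538 and 0.158). Its partners Rplp1 and Rplp2, whose acidic tails contact the factors, had -0.76 ± 0.55 and -0.79 ± 0.56 in WT and 0.28 ± 0.55 and -0.04 ± 0.55 in KO, all short of the threshold. Rpl12, at the base of the stalk, fell by 2.57 in WT and 2.47 in KO on the log2 scale, but with copies had -0.12 ± 0.44 and 0.19 ± 0.44. The 5S RNP is the particle of Rpl5, Rpl11 and 5S ribosomal RNA that can bind the p53 regulator Mdm2. Against the same shares of all genes, it held 2 lower members in WT, alone and with copies. In KO it held 1, which was lost with copies. Rpl5 went from 118 and 74.5 CPM to 8.38 and 7.44 CPM in WT, a change of -3.60 ± 0.49 alone and -1.40 ± 0.43 with copies (edgeR adjusted p = 0.000684 and 0.0280). Rpl11 changed by -1.43 ± 0.47 in WT and -0.85 ± 0.47 in KO (edgeR adjusted p = 0.0380 and 0.166).

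At the decoding end of the small subunit, 2 of 4 members fell in WT and 1 in KO, alone and with copies. Of all genes, 21.1% and 20.9% were lower. Rps23 and Rps3 fell in WT, by 2.94 ± 0.52 and 1.64 ± 0.51 on the log2 scale (edgeR adjusted p = 0.00240 and 0.0306). With copies Rps23 fell by 2.03 ± 0.51 in WT (edgeR adjusted p = 0.0124). In KO the lower member was Rps23, with a log2 change of -2.10 alone. Rps2 and Rps15 were among the members with the smallest differences. Rps2 stood at 790 and 862 CPM in WT e13.5 and 171 and 938 CPM in KO e13.5, and at 677, 574, 1318 and 515 CPM in adults. KO e13.5 replicate 1 lay far below the other e13.5 libraries, and KO adult replicate 1 above all others. The fitted values were -0.40 ± 0.74 in WT and 0.72 ± 0.74 in KO (edgeR adjusted p = 0.689 and 0.445). Rps15 stood at 225, 134, 167 and 154 CPM at e13.5 and 202, 142, 317 and 132 CPM in adults (-0.06 ± 0.51 in WT and 0.49 ± 0.52 in KO). In the large subunit, Rpl7a, Rpl23a and Rpl17 lay farthest above the WT median, with -0.43 ± 0.45, -0.51 ± 0.52 and -0.69 ± 0.44, and Rplp1, Rpl30 and Rpl23a farthest above the KO median. Proteins around the peptide exit tunnel, among them Rpl4 and Rpl35, fell in 5 of 10 genes in WT and 4 of 10 in KO, and with copies in 4 and 2, beside 21.1% and 20.9% of all genes lower in both kinds of fit. Rpl31 was lost with copies in both genotypes and Rpl38 in KO. Copies held 75.7% of the family in adults for Rpl31 but only 2.18% for Rpl38.

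Of the 4 members on the X chromosome, Rpl10, Rpl36a and Rpl39 fell in WT, alone and with copies, against 21.1% of all genes. In KO Rpl10 and Rpl36a fell alone, against 20.9% of all genes, and neither passed with copies. Rpl36a, whose copies held 59.3% of its family in adults, changed by -2.75 ± 0.52 in WT and -2.04 ± 0.51 in KO alone and by -1.55 ± 0.55 and -0.78 ± 0.54 with copies (with copies, edgeR adjusted p = 0.0476 and 0.258), while Rps4x had -1.07 ± 0.48 and -0.64 ± 0.48 (edgeR adjusted p = 0.105 and 0.303). Xist, the RNA of the inactive X chromosome, was at 12.8 to 81.8 CPM at e13.5 and at most 0.464 CPM in adults, and its part in these values was not tested. Among 18 members known as Diamond-Blackfan anaemia genes, 14 fell in WT with a median of -1.76 and 8 fell in KO with a median of -1.15, against 21.1% and 20.9% of all genes. With copies 12 fell in WT and 4 in KO, with medians of -1.55 and -0.91 and the same shares of all genes. Rpl27 and Rpl31 were lost in WT, and Rpl5, Rpl15, Rpl27 and Rpl31 in KO. Rps19, Rps28, Rps29 and Rpl35 passed in both genotypes, alone and with copies.

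**Figure D4:**
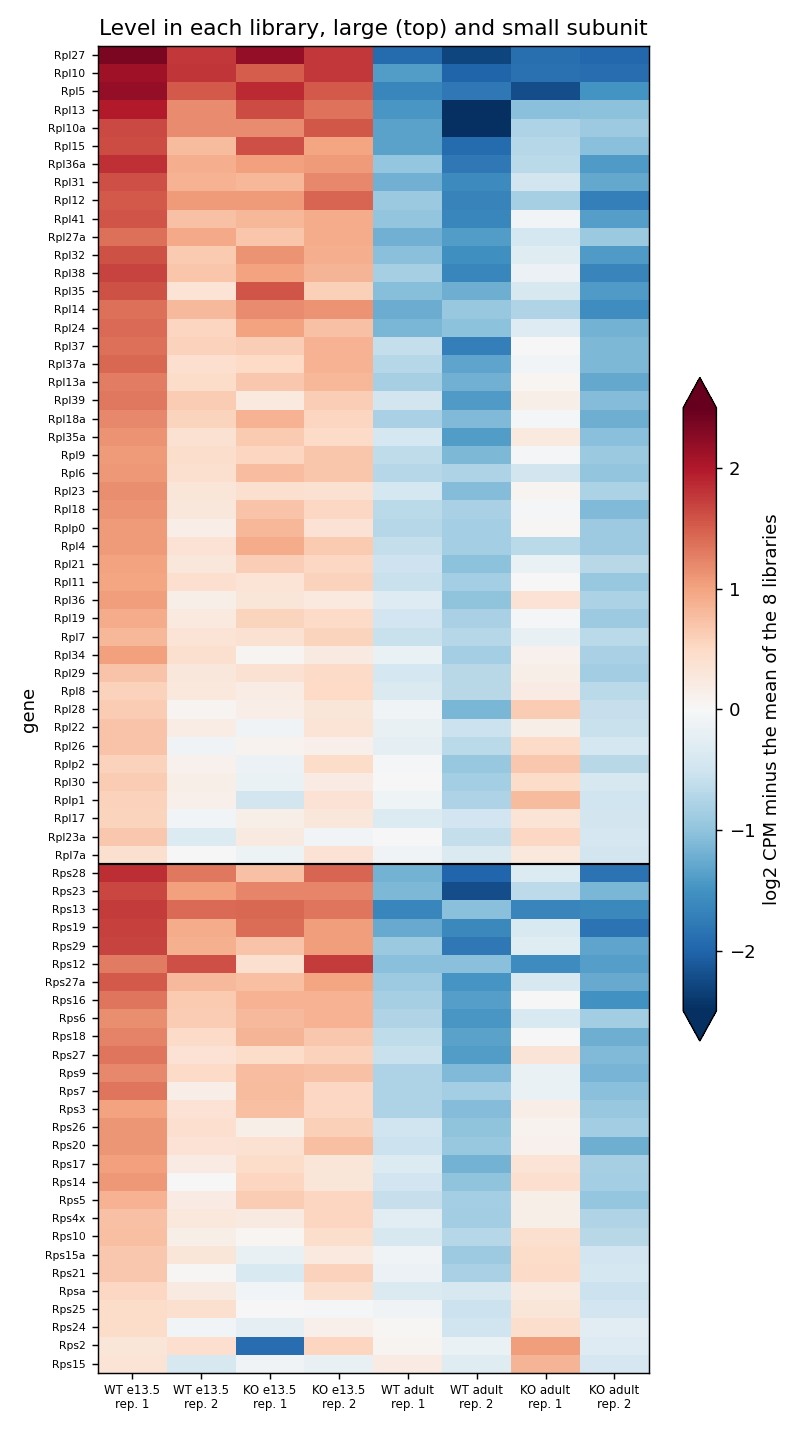
Level of 73 of the 75 members (rows, large subunit above the line, ordered by the WT age difference) in each of the 8 libraries (columns), as log2 CPM minus the gene's mean over the libraries. The e13.5 columns are mostly red and the adult columns blue, WT e13.5 replicate 1 is the deepest red, KO adult replicate 1 is the palest of the adult columns, and Rps2 is blue in KO e13.5 replicate 1.

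The start sites of the members were searched for pyrimidine runs near the start. Such a run need not be the 5' TOP motif, with which the mRNA itself begins. RefSeq starts (GRCm38.p6, the assembly of mm10) were found for 56 of the 75 members. A run of at least 8 C or T within 25 bases on either side of a start, read on the gene's strand, was present in 30 of 56 members (53.6%), in 20 of 34 large-subunit and 10 of 22 small-subunit genes, and in 22.3% of 27025 RefSeq genes. The 30-base windows below, 5' to 3', have the longest run in capitals and belong to members with 1 RefSeq start among those farthest above (Rpl7a, Rps2, Rps15) and farthest below the median. Windows lie at chr2:26910783-26910812, chr17:24720057-24720086 and chr10:80292402-80292431 for these 3, all on the + strand. Those for Rpl27, Rpl10, Rpl5 and Rps23 lie at chr11:101442228-101442257, chrX:74270784-74270813, chr5:107900498-107900527 and chr13:90923115-90923144 on the + strand. Those for Rps28, Rps13 and Rps12 lie at chr17:33824564-33824593, chr7:116334159-116334188 and chr10:23787182-23787211 on the - strand. The run was 21 bases in Rpl7a, 11 in Rps12 and 4 in Rpl10, and both long and short runs occurred at either end of the order. In Rps15, Rpl27, Rpl10, Rpl5 and Rps28 the run began at -19, -7, -22, -20 and -21 from the start. These runs lie wholly before the annotated start, so they are not part of the annotated mRNA.
Rpl7a: tcccccacaaTTCCCTCTTCTTTCTTTCTC
Rps2: agatctcgcgCTTCTTggagcactataaat
Rps15: tggaggcgggCCCTCCCggcagagctcgcg
Rpl27: gaacgctctgTTCCTgtctgctgctcgtgc
Rpl10: ctggctgtaaCTCTatggttgttacagtgg
Rpl5: cctacagccaCTCTTTCTCacgtcgcttgc
Rps23: ctgggcggggCTTCCCgcaatgccttgtgg
Rps28: gtcccgaggaTTCCTgggtaccgcgtgcgg
Rps13: agtggcgtcaCTTCCTgtgcggcttgattt
Rps12: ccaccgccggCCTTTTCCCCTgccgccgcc

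Between genotypes at e13.5, the comparison asks whether the family differs in the embryonic heart without LncSync. No member passed the test, against 0.0722% of all genes (edgeR; DESeq2 also called 0). At an unadjusted p under 0.05 in edgeR there were 0 members, beside 398 of all 16623 genes. The median log2 fold change of KO against WT was -0.17 in the large and -0.21 in the small subunit, beside -0.07 over all genes, with 70 of 75 negative. Libraries of the genotypes did not overlap in 6 members, all lower in KO (Rpl10, Rpl27a, Rpl34, Rpl39, Rps15a and Rps25), against 15.4% of all genes not overlapping in either direction. Rpl34, a protein of the large subunit, stood at 251 and 161 CPM in WT and 129 and 143 CPM in KO (-0.60 ± 0.48), and at -0.38 ± 0.48 with its copies, of which Rpl34-ps1 had 290 and 657 counts in KO against 1 and 2 in WT. Rpl39, which lines the exit tunnel, stood at 165 and 102 CPM in WT and 78.3 and 100 CPM in KO (-0.58 ± 0.54). In the small subunit Rps25, which some viral mRNAs need for initiation, stood at 226 and 217 CPM in WT and 165 and 163 CPM in KO (-0.43 ± 0.43), and the smallest p of its subunit also included Rps15a (-0.47 ± 0.49) and Rps29 (-0.46 ± 0.52).

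The direction at e13.5 went with the replicate number. Between replicates 1, all 75 members were lower in KO, with a median difference of -0.51 on the log2 CPM scale, and between replicates 2, 66 of 75 were higher in KO, with a median of 0.19. Without WT e13.5 replicate 1 the fitted medians were 0.33 and 0.30. Erythroid markers summed to 154100 CPM in KO e13.5 replicate 1 against 19540 to 42180 CPM in the other e13.5 libraries, and fibroblast markers to 886 and 418 CPM in replicate 1 of WT and KO against 3699 and 3646 CPM in replicate 2. Of the 8 fibroblast markers, Dcn (170 against 119 CPM) and Tcf21 (12.4 against 11.7 CPM) were not lower in WT replicate 1. Of the 11 erythroid markers, all but Hba-a2 and Slc4a1 were highest in KO e13.5 replicate 1. All 11 erythroid and 8 fibroblast markers found in the table had counts, and their part in the result was not tested.

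In adults, 0 members passed the edgeR test in KO against WT (0.0481% of all genes did), with 0 called by DESeq2. At an unadjusted p under 0.05 in edgeR there were 0 members, beside 377 of all 16623 genes. The medians were 0.41 in the large and 0.44 in the small subunit, beside 0.01 over all genes, and 69 of 75 fold changes were positive. The genotypes did not overlap in 5 members, against 27.9% of all genes not overlapping in either direction. Rpl10a, Rpl13, Rpl15 and Rpl27a were higher in both KO libraries and Rps12 was lower. All 5 are members with large copy shares, and with copies Rpl15 went from 0.73 ± 0.48 to 0.41 ± 0.52 and Rps12 from -0.43 ± 0.51 to 0.34 ± 0.59. Rpl10a stood at 50.3 and 21.5 CPM in WT and 74.0 and 67.9 CPM in KO (0.98 ± 0.49, unadjusted p = 0.0756 in edgeR), and with copies at 0.31 ± 0.47. Rpl13, at 134 and 61.1 CPM in WT and 179 and 181 CPM in KO, had 0.88 ± 0.52 alone and 0.21 ± 0.50 with copies. Rpl27a, at 24.8 and 21.7 CPM in WT and 41.8 and 29.9 CPM in KO, had 0.62 ± 0.41 and 0.45 with copies. In the small subunit the smallest p belonged to Rps23 (0.68 ± 0.49, and 0.33 ± 0.49 with copies), Rps3 (0.63 ± 0.50) and Rps27 (0.70 ± 0.57), whose libraries overlapped.

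The adult direction turned without KO adult replicate 1. Between replicates 1 the median KO minus WT difference was 0.61 on the log2 CPM scale with 70 of 75 members higher in KO, and between replicates 2 it was 0.12 with 46 higher. Without KO adult replicate 1 the fitted medians were -0.15 in the large and -0.20 in the small subunit, and without KO adult replicate 2 the small-subunit median was 0.89. The same library had the highest sums of endothelial markers (2124 CPM against 863 to 1165 CPM) and of macrophage and leukocyte markers (489 CPM against 186 to 304 CPM). Only Ptprc among these markers was not highest there, at 5.86 CPM against 5.79 to 11.8 CPM in the other adult libraries. Fibroblast sums (1031 CPM against 403 to 656 CPM) and smooth muscle and pericyte sums (942.7 CPM against 518 to 762.5 CPM) were highest there too. In these lists Pdgfra, Postn, Myh11, Cnn1 and Rgs5 were not highest there. Cardiomyocyte markers had their lowest adult sum there (83590 CPM against 105300 to 107900 CPM), although Tnni3, Actc1, Myl2, Myl3 and Nkx2-5 were not lowest. Ttn, one of the longest transcripts of the heart, stood at 1231 CPM there against 4686 to 7470 CPM in the other adult libraries. Other protein-coding genes under 1 kb differed by a median of 0.24 between adult KO and WT. Those from 1 to 2 kb differed by 0.093 and those over 8 kb by -0.19. The members had 0.35 on the same scale, without the floor of 5 CPM in every library set for the other genes. The part of these differences in the result was not tested.

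**Figure D5:**
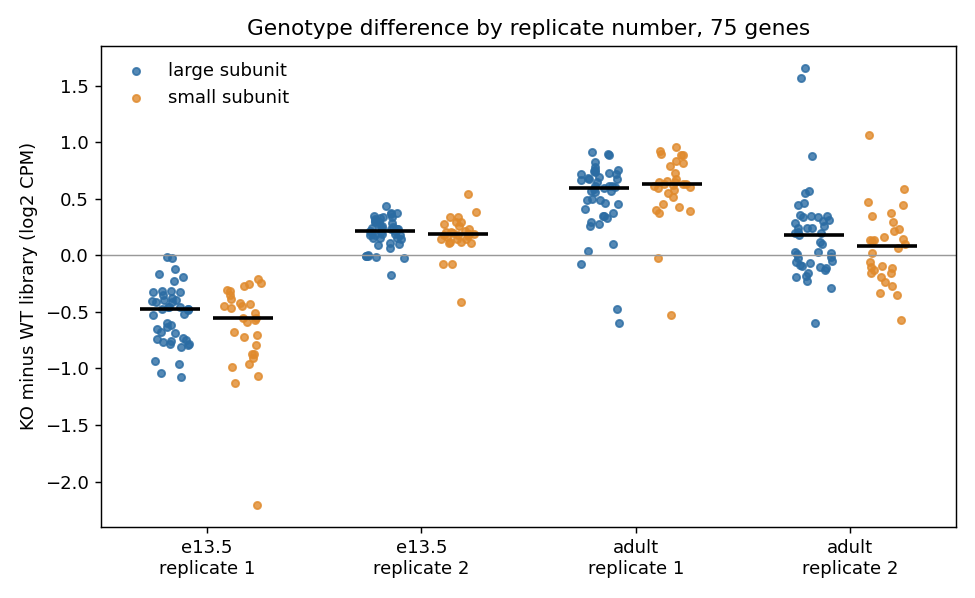
KO minus WT difference in log2 CPM (vertical axis) of each member between the libraries with the same replicate number at each age, for the large and the small subunit, with bars at the medians. At e13.5 the points lie below 0 for replicates 1 and mostly above for replicates 2, and in adults they lie at a median of 0.61 for replicates 1 and 0.12 for replicates 2.

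Averaged over both ages, 0 members differed between genotypes in edgeR (0.12% of all genes did) and 0 in DESeq2, with medians of 0.11 and 0.10. At an unadjusted p under 0.05 in edgeR there were 0 members, beside 470 of all 16623 genes. The smallest p belonged to Rpl10a (0.46 ± 0.35), Rpl15 (0.40 ± 0.33) and Rpl13 (0.37 ± 0.36), and to Rps12 (-0.33 ± 0.36), Rps13 (-0.26 ± 0.29) and Rps3 (0.28 ± 0.35). All of these but Rps3 are members with large copy shares, and these values are for the gene alone. With copies, all large-subunit values lay between -0.069 and 0.196 and all small-subunit values between -0.082 and 0.277. The test of whether the genotype effect differed between the ages called 0 members and 0 genes (0% of all genes; 265 genes and 0 members at an unadjusted p under 0.05 in edgeR, and 0 members in DESeq2). The difference, adult effect minus e13.5 effect, was positive in 71 of 75 members, with medians of 0.63 and 0.65 beside 0.12 over all genes. Rpl39, Rpl10a and Rpl27a had 1.10 ± 0.76, 1.04 ± 0.69 and 0.98 ± 0.57, and Rps27, Rps29 and Rps15a 1.11 ± 0.81, 1.03 ± 0.74 and 0.98 ± 0.69. Rpl10a and Rpl27a are members with large copy shares, and these values are for the gene alone. Without KO adult replicate 1 the medians were 0.08 and 0.07, and without WT e13.5 replicate 1 they were 0.05 and 0.13. The smaller number of lower members in KO than in WT with age was thus not shown to differ between the genotypes.

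Genes that work with the ribosome differed by age in both directions. The counts below stand beside 21.1% of all genes lower and 17.8% higher in WT, and 20.9% lower and 20.5% higher in KO. Among 11 tested subunits and paralogs outside the naming rule, 5 fell and 1 rose in WT, and 4 fell and 1 rose in KO. The one that rose was Rpl3l, the muscle paralog of Rpl3, at 0.830, 0.585, 1.56 and 0.158 CPM at e13.5 and 276, 251, 333 and 256 CPM in adults (log2 8.54 ± 0.96 in WT, edgeR adjusted p = 0.000358). Rpl22l1, the paralog of Rpl22, went the other way, from 176, 82.8, 123 and 98.2 CPM to 4.20 to 8.57 CPM (-4.45 ± 0.59 in WT and -3.98 ± 0.57 in KO). Of 15 elongation factors and other transcripts with a 5' TOP motif, 1 rose and 5 fell in WT and 2 rose and 4 fell in KO. Eef1a1, which brings aminoacyl-tRNA to the ribosome, fell from 5755 and 4089 CPM to 777 and 534 CPM in WT, and Eef1a2, its paralog of muscle and neurons, rose from 0.922 and 1.27 CPM to 1274 and 958 CPM. Tpt1, a TOP transcript, rose in KO by 1.83 ± 0.50 (edgeR adjusted p = 0.0160).

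Of 23 initiation factors, 10 fell and 2 rose in WT and 9 fell and 2 rose in KO, with Eif4a1, the mRNA helicase, at -2.19 ± 0.56 and Eif3b, a scaffold subunit of eIF3, at 2.73 ± 0.45 in WT. Of 24 ribosome biogenesis genes 9 fell in each genotype and 0 rose, with Nop58 and Nop56, of the particles that methylate ribosomal RNA, at -3.33 ± 0.47 and -1.98 ± 0.42 in WT. Of 11 RNA polymerase I genes 1 rose and 2 fell in WT, and 1 rose and 1 fell in KO, all at or below the shares of all genes. Of 13 genes of mTORC1 and TOP regulation 5 rose and 2 fell in WT, and 6 rose and 6 fell in KO. Larp1 rose by 3.37 ± 0.41 and Mtor by 2.34 ± 0.52 in WT, while Myc fell by 5.85 ± 0.47. All 12 proliferation genes fell in both genotypes, with medians of -4.43 and -4.72.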

How the data were processed

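The values deposited by the authors are estimated counts per gene for all 8 libraries, made with RSEM on mm10 per the submitters' processing notes. No version, aligner or annotation is named in the sources used here. The table's name speaks of normalised input, but the values are already whole numbers with totals that differ between libraries, and they were read as unscaled counts. Symbols, biotypes and positions came from GENCODE vM21 (51633 of 51826 identifiers matched), and start sites from RefSeq.

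Tests were run with edgeR 4.0.16 under R 4.3.3: filterByExpr to leave out low genes, TMM scaling, and a two-sided quasi-likelihood test with 4 group means and no replicate block, with Benjamini-Hochberg adjustment over 16623 genes. Errors after ± are an SE of a log2 fold change, or the SD (n = 2) of a level. The SE was computed back from the test, as the absolute log2 fold change over the square root of the quasi-likelihood F. Total counts ran from 16495084 to 20395600. Copies were found with BLAST+ 2.17.0 and their counts added to the member before refitting. That alternative, the grouping by copy share and the summary by transcript length were chosen after seeing the data. The members, gene lists and comparisons were chosen with earlier results of these data known. The named members were, per comparison, those of largest change among the called ones or the 3 of smallest p in each subunit, then the ends of the order per length, those farthest from the median age difference, and the short role lists. On simulated data for the WT age comparison (15528 genes), 28 of 89 genes with an 8-fold change and 6 of 106 with a 4-fold change were found, with 5 false calls. Far fewer genes were changed there than the 2954 higher and 3509 lower genes called in the real WT age comparison. The Benjamini-Hochberg cutoff depends on that number, so the share of changes found in the real comparison was not tested. Other alternatives were DESeq2 1.42.0, other filters, scalings and totals, the libraries of a comparison alone, a replicate block, and each library left out. Python 3.11.15, Biopython 1.88 and matplotlib 3.10.9 were used for sequences and plots. Results on some items are not reported here, and these are not drawn by name.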

Additional observations from a re-analysis of the deposited data

How the results depend on the processing

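Under every alternative run, 0 members were called between genotypes and in the interaction. The age counts of 48 in WT and 26 in KO ranged from 9 to 55 and from 5 to 29 when 1 library was left out, with 6.46% to 20.7% and 8.08% to 22.2% of all genes lower in the same fits, and the KO count became 11 with all copies added (20.9% of all genes). Leave-one-out medians of the large and small subunit ran from -1.91 to -1.09 and -1.87 to -1.06 (age in WT), -1.70 to -0.69 and -1.65 to -0.47 (age in KO), -0.45 to 0.33 and -0.45 to 0.30 (genotype at e13.5), -0.15 to 0.78 and -0.20 to 0.89 (genotype in adults), and 0.053 to 0.98 and 0.069 to 1.07 (interaction). Without mitochondrial, haemoglobin and ribosomal RNA genes in the total the members' share was 4.12% in WT e13.5, 1.15% in WT adults and 1.46% in KO adults. Some members turned sign when 1 library was left out: between genotypes Rpl27a ran from -0.53 to 0.0095 and Rps29 from -0.79 to 0.13 at e13.5 (positive without WT replicate 1), and in adults Rps3 ran from -0.028 to 1.07 and Rps27 from -0.19 to 1.24 (negative without KO replicate 1). Averaged over the ages Rps3 ran from -0.051 (without KO adult replicate 1) to 0.52, and Rpl15 (-0.062), Rps12 (0.092) and Rps13 (0.065) turned with named pseudogenes added, as did Rps12 (0.050) and Rps13 (0.066) with all copies. Rps12 with age in KO became 1.77 with named pseudogenes and 1.07 with all copies. Beyond fewer libraries, and reads moved from copy to parent, the cause was not tested.

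The replicate numbers are shared labels, not a stated pairing. Deviations of same-numbered libraries correlated with r = 0.552 at e13.5 and 0.307 in adults, across genes. With the number as a replicate block, the members lower with age in KO were 40 with all libraries and 42 with the block at e13.5 alone, and those in WT 56 and 57. The share of all genes lower in these fits was 24.5% and 28.7% in KO and 24.3% and 29.4% in WT.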
